A study of Zea mays with 96 samples.

Results

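The *nkd1* single mutant was compared directly with the *nkd2* single mutant in maize endosperm at 16 days after pollination (DAP). The comparison rests on 8 of the 96 RNA-seq libraries of the study, the 4 of *nkd1* and the 4 of *nkd2* at that age, chosen by their genotype and age labels alone, and *nkd1* and *nkd2* libraries at 8 and 12 DAP were used beside them. The *nkd1* plants were homozygous mutant at *nkd1* and wild type at *nkd2* and *o2*, whereas the *nkd2* plants were homozygous mutant at *nkd2* and wild type at *nkd1* and *o2*. The study's methods name the alleles *nkd1-Ds* and *nkd2-null*, both carried by a double mutant that was crossed with an *o2* mutant, with each parent in the W22 background, and every genotype descended from the selfed triple heterozygote. The same comparison was read without O2 from *nkd1 o2* (mutant at *nkd1* and *o2*) and *nkd2 o2* (mutant at *nkd2* and *o2*) at 16 DAP, and WT had functional alleles of all 3 genes. The labels describe the plants as grown in the field and self-pollinated, whereas the study's methods name a greenhouse or a field. For every library, 3 endosperms were pooled, and the study's methods give 4 independent ears of each genotype for the 4 replicates. Whether each age had its own ears is not stated.

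NKD1 and NKD2 are duplicate transcription factors of the INDETERMINATE DOMAIN (IDD) zinc-finger family. Loss of both disturbs the aleurone, the outer cell layer of the endosperm, and lowers storage in the starchy endosperm beneath it. OPAQUE2 (O2) is a bZIP transcription factor that switches on zein genes, whose products are the main storage proteins of the maize kernel. Setting the single mutants against each other asks where losing either paralog leaves a different transcriptome.

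Between 36654992 and 40945855 reads were counted on genes in the *nkd1* libraries, 31327665 to 48394247 in *nkd2* and 31916039 to 39998562 in WT. The 10 most abundant genes of a library took 29.7 to 31.9% of these reads in *nkd1*, 24 to 26.4% in *nkd2* and 30.9 to 31.9% in WT. Zein genes, which define endosperm, were abundant throughout, and the 16 annotated ones summed to 238000 to 261000 CPM (counts scaled to library sizes normalized by the trimmed mean of M-values, TMM) in *nkd1*, 188000 to 196000 CPM in *nkd2* and 221000 to 243000 CPM in WT. The 4 annotated photosynthesis genes, markers of green maternal tissue, summed to 4.90 to 11.9 CPM in *nkd1*, 5.65 to 11.4 CPM in *nkd2* and 5.81 to 9.38 CPM in WT. Some libraries stood apart from the others of their genotype. In *nkd1*, 25 genes were at 1 CPM or more in libraries 1 and 2 but under 0.1 CPM in libraries 3 and 4, and 26 genes showed the reverse, whereas every other split of the *nkd1* libraries into pairs gave 0 or 1 gene. The same pairs recurred at the other ages, where 4 of the 25 and 14 of the 26 genes showed the same split in *nkd1* at 12 DAP and 6 and 12 at 8 DAP, none the opposite one. None of these genes was split in this way in *nkd1 o2*. What same-numbered *nkd1* libraries share across ages was not tested. In *nkd2*, library 4 lay far from the other 3 libraries in 1046 of 17257 genes (6.06%), against 0.719 to 0.898% for each of the others. Where a call named here was lost or gained without these libraries, both values are given. In bulk tissue, fewer cells of a type and less RNA per cell cannot be told apart.

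Of 24239 genes tested at 16 DAP, 1343 (5.54%) differed between *nkd1* and *nkd2* and are called DEGs here, for which edgeR's adjusted P had to be below 0.05 and the log2 fold change (log2FC, *nkd1* minus *nkd2*) beyond 1 in either direction. Of these, 849 (3.5%) were higher and 494 (2.04%) lower in *nkd1*. With no limit on the fold change, 4765 genes (19.7%) passed, 2539 higher (10.5%) and 2226 lower (9.18%), and 7884 had an unadjusted P-value under 0.05. The median log2FC of all genes tested was −0.01. Groups did not overlap for 942 of the DEGs and for 4729 (19.5%) of all genes tested. Only 78 DEGs carried a symbol or description in the study's tables, so most are given by their identifier. With only the 8 libraries in the fit, 835 genes were DEGs, and 770 of these were among the 1343. Without *nkd1* libraries 1 and 2 there were 1238 DEGs, of which 768 were among the 1343, and without *nkd1* libraries 3 and 4 there were 1309, of which 822 were. The fits without either pair thus gave similar numbers but only partly the same genes.

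**Figure D1:**
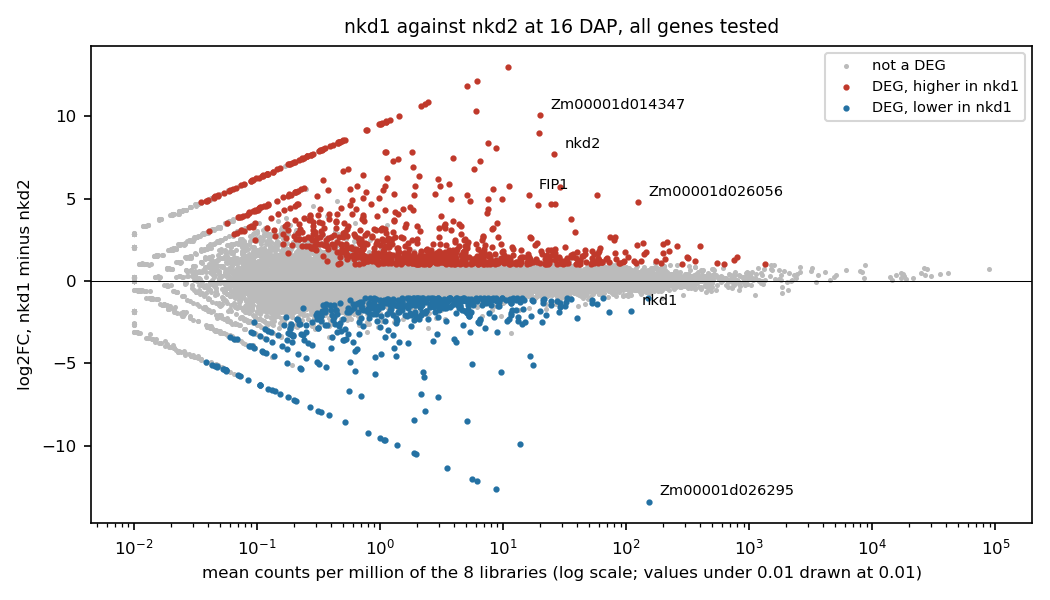
Each point is a gene tested at 16 DAP, by its mean level in the 4 *nkd1* and 4 *nkd2* libraries (CPM, log axis) and its log2FC (*nkd1* minus *nkd2*). The 849 DEGs higher in *nkd1* are red, the 494 lower are blue and the other genes grey, and lines of points at the left are genes with few counts.

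Over all genes tested, the difference between the genotypes took 34.6% of the sum of squares of log2 CPM among the 8 libraries (exact permutation test, P = 0.0286, the smallest that 70 arrangements allow). The Euclidean distance over all genes between an *nkd1* and an *nkd2* library was 162 to 181 (median 168). It was 115 to 155 (median 153) between 2 *nkd1* libraries and 108 to 139 (median 128) between 2 *nkd2* libraries. Every distance between the genotypes was therefore above every distance within them. Set against WT, *nkd1* libraries lay at 146 to 163 (median 153) and *nkd2* libraries at 152 to 179 (median 159).

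The transcripts of the mutated genes differed in opposite directions. The *nkd1* transcript (Zm00001d002654) was at 43.5, 42.0, 55.4 and 49.7 CPM in *nkd1*, 168, 156, 173 and 192 CPM in *nkd2*, and 115, 121, 131 and 105 CPM in WT. No groups overlapped, and *nkd1* mutants kept part of the transcript while *nkd2* mutants lay above WT. Its log2FC was −1.85 between the mutants (SE 0.144, adjusted P = 1.9e-10), −1.31 in *nkd1* against WT (SE 0.142, adjusted P = 5.3e-07) and 0.55 in *nkd2* against WT (SE 0.139, adjusted P = 0.008). Counts per gene cannot tell an intact transcript from an altered one.

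The *nkd2* transcript (Zm00001d026113) was at 56.1, 55.6, 51.8 and 42.1 CPM in *nkd1*, 0.429, 0.156, 0.252 and 0.169 CPM in *nkd2*, and 27.2, 28.8, 34.4 and 25.9 CPM in WT. It was thus nearly absent from *nkd2* libraries, and every *nkd1* library lay above every WT library. The log2FC was 7.71 between the mutants (SE 0.341, adjusted P = 4.1e-16), 0.82 in *nkd1* against WT (SE 0.228, adjusted P = 0.048) and −6.89 in *nkd2* against WT (SE 0.336, adjusted P = 6e-15). In each single mutant, the transcript of the intact paralog was therefore higher than in WT, by 0.82 for *nkd2* and 0.55 for *nkd1* on the log2 scale. Both comparisons share the WT libraries.

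The *o2* transcript (Zm00001d018971) averaged 912 ± 174 CPM in *nkd1*, 633 ± 164 CPM in *nkd2* and 941 ± 74.5 CPM in WT (SD, n = 4 each). It did not pass the test between the mutants (log2FC 0.53, SE 0.232, adjusted P = 0.11). The highest *nkd2* library, number 4, was at 878 CPM, and without it the log2FC was 0.73 (adjusted P = 0.031). Another annotated IDD gene (Zm00001d006682) averaged 2.52 ± 0.614 CPM in *nkd1* and 1.89 ± 1.40 CPM in *nkd2* (SD, n = 4 each), with a log2FC of 0.41 (adjusted P = 0.41).

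**Figure D2:**
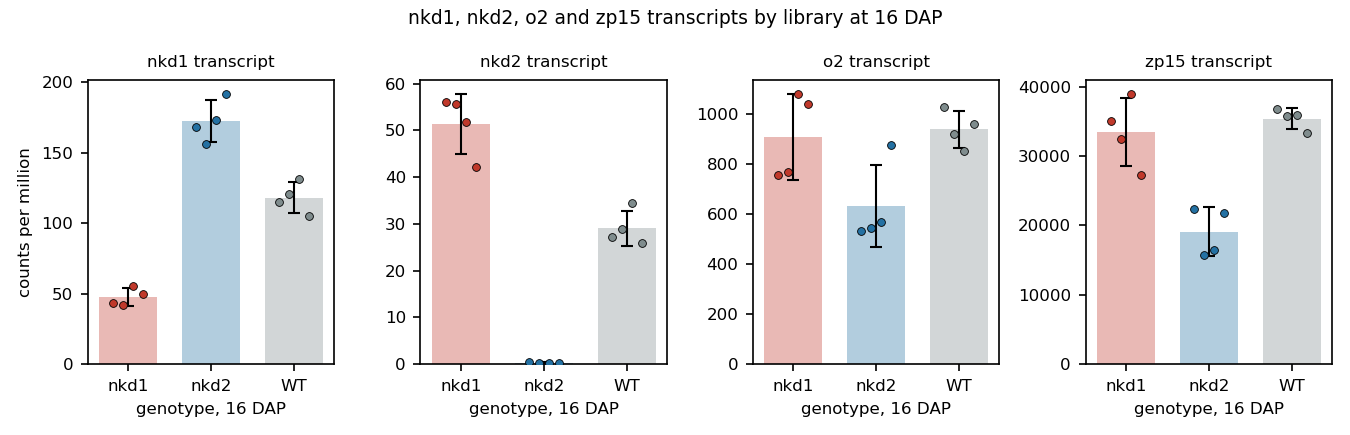
Levels (CPM) of the *nkd1*, *nkd2*, *o2* and *zp15* transcripts at 16 DAP in *nkd1*, *nkd2* and WT, with a point per library, bars for the mean and error bars for the SD of 4 libraries. The *nkd1* libraries have 42.0 to 55.4 CPM of *nkd1* transcript and the *nkd2* libraries 0.156 to 0.429 CPM of *nkd2* transcript.

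DEGs gathered among genes whose identifier numbers lie close to that of *nkd2*. B73 RefGen_v4 identifiers were numbered along the chromosomes, so the number stands in for position here, and no coordinates were used. Within 100 numbers of *nkd2*, 26 of 100 genes tested (26%) were DEGs, 8 higher and 18 lower in *nkd1*, against 5.54% of all genes. Within 200 numbers there were 52 of 213 (24.4%). Within 100 numbers of *nkd1*, 7 of 104 genes (6.73%) were DEGs, which is close to the share of all genes. These counts include the mutated genes themselves. Without *nkd2* there were 25 DEGs within 100 numbers of it and 51 within 200, and without *nkd1* there were 6 within 100. Sequence of the donor of a mutant allele that stayed linked to it cannot be told apart from an effect of the mutation in these counts.

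In bins of 100 numbers, the share around *nkd2* was 32.7% in the bin just below the gene and at least 12.5% in each bin from 800 below to 399 above. It was 1.67% in the next bin above. Over all identifiers in bins of 250 numbers, 8 of 208 bins reached 15%. The highest 3 spanned the *nkd2* region, at 24.6% (35 of 142 genes), 23.3% (28 of 120) and 23.2% (32 of 138). The fourth, from number 44000 to 44249, held 29 DEGs among 126 genes tested (23%) and is far from both loci in this numbering. The rest were 24750 to 24999 (18.3%), 14250 to 14499 (17.7%), 24500 to 24749 (17.6%) and 25500 to 25749 (15.7%). Of genes named below, Zm00001d014347 and Zm00001d014314 lie in the bin from 14250, and Zm00001d024574 lies in that from 24500.

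**Figure D3:**
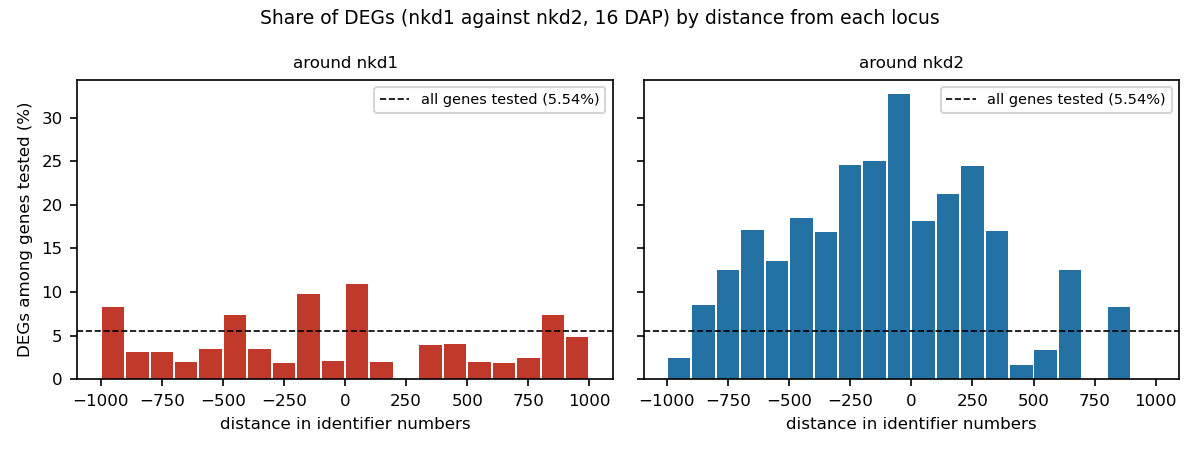
Share of DEGs among genes tested (%) in bins of 100 identifier numbers around *nkd1* (left, red) and *nkd2* (right, blue), with the share over all genes tested, 5.54%, as a dashed line. Around *nkd2* the share reaches 32.7%, and around *nkd1* 10.9%.

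Near *nkd2*, the genes that differed most included Zm00001d026295, at 0, 0.0997, 0 and 0 CPM in *nkd1*, 360, 341, 329 and 186 CPM in *nkd2*, and 0 CPM in all 4 WT libraries. Every *nkd1* library had 3 counts or fewer, so it was at least 3000-fold lower in *nkd1* against that floor per library. Zm00001d026097 had 1.34, 1.56, 1 and 1.53 CPM in *nkd1*, 37.0, 31.4, 33.3 and 25.6 CPM in *nkd2*, and 1.49 to 2.20 CPM in WT (log2FC −4.54, SE 0.241, adjusted P = 3.7e-14). For both genes, *nkd1* and WT were near each other and *nkd2* was high.

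Zm00001d026147 was at 0 CPM in all 4 *nkd1* libraries and at 5.72, 7.28, 5.76 and 9.06 CPM in *nkd2*, with 0.0656 to 1.36 CPM in WT, and was at least 68.8-fold lower in *nkd1*. In the other direction, Zm00001d026056 was at 207, 200, 286 and 262 CPM in *nkd1*, 6.65, 5.25, 6.13 and 16.3 CPM in *nkd2*, and 215 to 238 CPM in WT (log2FC 4.80, SE 0.249, adjusted P = 2.6e-14). It was low in *nkd2* alone among these 3 groups. Zm00001d026067 averaged 8.08 ± 1.98 CPM in *nkd1*, 1.45 ± 0.434 CPM in *nkd2* and 7.39 ± 1.93 CPM in WT (SD, n = 4 each), with a log2FC of 2.48 (SE 0.358, adjusted P = 1.6e-05). Zm00001d026069 averaged 4.33 ± 0.860 CPM in *nkd1*, 0 CPM in *nkd2* and 4.23 ± 0.332 CPM in WT, and was at least 51.1-fold higher in *nkd1*.

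The remaining genes named near *nkd2* had few reads. Zm00001d026137, Zm00001d026133 and Zm00001d026037 were at 0 CPM in every *nkd1* library, against means of 0.399, 0.212 and 0.279 CPM in *nkd2*. Zm00001d026042 averaged 0.0787 CPM in *nkd1* and 0 CPM in *nkd2*, and its adjusted P of 0.041 was above 0.05 without any of 6 of the 8 libraries, at 0.07 to 0.093. Without either pair of *nkd1* libraries, Zm00001d026042 (0.059 and 0.1), Zm00001d026037 (0.12 and 0.1) and Zm00001d026133 (0.087 and 0.075) had adjusted P-values above 0.05.

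Near *nkd1*, the named genes had low to moderate levels. Zm00001d002678 was at 18.2, 23.9, 8.57 and 7.63 CPM in *nkd1*, 0.0715, 0.676, 0.895 and 0 CPM in *nkd2*, and 0.0984 to 5.85 CPM in WT (log2FC 5.01, SE 0.981, adjusted P = 0.00057). The mutants did not overlap, although WT spread widely. Zm00001d002687, described as cytochrome P450 86A7, averaged 8.59 ± 1.52 CPM in *nkd1*, 3.66 ± 0.934 CPM in *nkd2* and 4.08 ± 1.29 CPM in WT (SD, n = 4 each), with a log2FC of 1.23 (SE 0.282, adjusted P = 0.0025). Members of its family in Arabidopsis hydroxylate fatty acids. Zm00001d002658 averaged 1.59 ± 0.307 CPM in *nkd1* and 4.24 ± 0.572 CPM in *nkd2*, with a log2FC of −1.42 (SE 0.223, adjusted P = 4.8e-05). Zm00001d002554 averaged 0.0504 CPM in *nkd1* and 0.449 CPM in *nkd2*. Zm00001d002744 had a log2FC of 1.43, and its adjusted P of 0.013 was 0.058 without *nkd2* library 2. Zm00001d002753 averaged 0.436 CPM in *nkd1* and 0 CPM in *nkd2*, and its adjusted P of 0.0086 was 0.053 without *nkd1* library 4 and 0.074 without *nkd1* libraries 3 and 4. Without *nkd1* libraries 1 and 2, Zm00001d002744 had an adjusted P of 0.085, and Zm00001d002554 was above 0.05 without either pair of *nkd1* libraries (0.09 and 0.075). With only the 8 libraries in the fit, that of Zm00001d002744 was 0.074.

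Some genes were on in every library of a mutant and off in the other. At least 1 CPM in all 4 *nkd2* libraries with 3 counts or fewer in all 4 *nkd1* libraries was found for 18 genes, and the reverse for 13 genes. All 31 would have to differ by construction, so the counts are a description. Libraries of a single genotype differed in a like way at 16 DAP. Genes at 1 CPM or more in a pair of libraries and under 0.1 CPM in the other pair numbered 25 and 26 in *nkd1*. In WT there were at most 7. Of the 31 genes, Zm00001d053069 was at 4.29 CPM in *nkd2* library 3 at 12 DAP and at 0 CPM in the other *nkd2* libraries of that age. Of the 18 genes off in *nkd1*, WT was also at 3 counts or fewer in 8 and at 1 CPM or more in 4. Of the 13 genes off in *nkd2*, WT was off in 1 and on in 6. Among these 31 genes, 3 lay within 200 numbers of *nkd2* and none within 200 numbers of *nkd1*.

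Zm00001d021910 was at 0 CPM in every *nkd1* and WT library and at 13.9, 12.8, 11 and 11.4 CPM in *nkd2*, and was at least 121-fold lower in *nkd1*. An ABC transporter B gene (Zm00001d025703), of a family of membrane pumps, was at 0 to 0.0332 CPM in *nkd1*, 5.08, 4.21, 2.94 and 6.32 CPM in *nkd2*, and 3.74 to 7.81 CPM in WT. Here *nkd2* and WT overlapped and *nkd1* was low. The number of this gene lies 401 to 500 below that of *nkd2*, in a bin where 18.5% of genes tested were DEGs. Zm00001d052673 was at 0 CPM in every *nkd1* library, 8.11, 6.21, 5.32 and 50.4 CPM in *nkd2*, and 0 to 0.538 CPM in WT, with *nkd2* library 4 far above the rest.

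Among genes off in *nkd2*, Zm00001d047323 was at 1.22, 1.10, 34.5 and 50.6 CPM in *nkd1* and at 0 CPM in every *nkd2* and WT library. Its high values fell in *nkd1* libraries 3 and 4, the pair that stood apart from 1 and 2. Zm00001d052327 was at 7.75, 6.38, 19.7 and 14.5 CPM in *nkd1*, 0 to 0.026 CPM in *nkd2* and 21.3 to 27.5 CPM in WT. It was at least 143-fold higher in *nkd1* at 16 DAP, where *nkd2* was the low group. Libraries of the same genotype differed at the other ages. At 12 DAP library 3 was at 12.5 CPM in *nkd2* and 0 CPM in *nkd1*, the reverse of the other libraries. At 8 DAP *nkd2* library 1 was at 16 CPM and *nkd1* library 3 at 0 CPM. In *nkd2 o2* at 16 DAP it was at 11 to 21.8 CPM. Zm00001d014347 was at 40.8, 45.0, 18.5 and 54.7 CPM in *nkd1*, 0, 0.104, 0 and 0.0282 CPM in *nkd2*, and 32.6 to 49.1 CPM in WT (log2FC 10.07, SE 0.417, adjusted P = 2.1e-16).

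Of the annotated DEGs, 26 had a mean of at least 100 counts and did not overlap between the mutants. Those named here are the 12 with the largest positive log2FC, *nkd2* among them, and all 7 that were lower in *nkd1*, the *nkd1* transcript among them. FIP1 (Zm00001d025901) had the largest log2FC after *nkd2*, at 31.3, 31.5, 27.8 and 35.2 CPM in *nkd1*, 0.429, 1.17, 0.413 and 1.36 CPM in *nkd2*, and 0.328 to 1.42 CPM in WT. Its log2FC was 5.21 between the mutants (SE 0.908, adjusted P = 0.00017), 5.01 in *nkd1* against WT (adjusted P = 0.0016) and −0.21 in *nkd2* against WT (adjusted P = 0.93). For this gene *nkd1* was the high group. Its number lies 201 to 300 below that of *nkd2*, in a bin where 24.6% of genes tested were DEGs.

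A cation/H+ antiporter (Zm00001d031077) was at 6.69, 7.58, 2.9 and 9.72 CPM in *nkd1*, 1.14, 1.07, 0.918 and 0 CPM in *nkd2*, and 0.164 to 1.96 CPM in WT (log2FC 3.10, SE 0.786, adjusted P = 0.0098). A ZIP family gene (Zm00001d019228), of carriers of zinc and iron into the cytosol, was at 47.3, 53.1, 42.1 and 24 CPM in *nkd1*, 11, 15.3, 14.7 and 2.96 CPM in *nkd2*, and 16.1 to 30.8 CPM in WT (log2FC 1.92, SE 0.403, adjusted P = 0.0011). The lowest *nkd1* and the lowest *nkd2* library were both number 4. Aquaporin TIP1-1 (Zm00001d027652), a water channel of the vacuolar membrane, was at 55.5, 48.1, 157 and 81.2 CPM in *nkd1*, 33.2, 34.7, 35.9 and 35.6 CPM in *nkd2*, and 70.2 to 95.3 CPM in WT. It was higher in *nkd1* by a log2FC of 1.29 (SE 0.307, adjusted P = 0.0033), which was 0.56 (adjusted P = 0.23) without *nkd1* libraries 3 and 4 and 0.82 (adjusted P = 0.042) without *nkd1* library 3.

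The other annotated DEGs higher in *nkd1* had moderate levels. A tetratricopeptide repeat gene (Zm00001d014314) averaged 14.9 ± 6.54 CPM in *nkd1*, 1.62 ± 0.371 CPM in *nkd2* and 6.32 ± 2.07 CPM in WT, with a log2FC of 3.20 (SE 0.358, adjusted P = 2.8e-07). A cytochrome P450 gene (Zm00001d024574), of a family of oxygenases, averaged 13.1 ± 1.92 CPM in *nkd1*, 3.18 ± 0.544 CPM in *nkd2* and 17.5 ± 1.07 CPM in WT, with a log2FC of 2.04 (SE 0.386, adjusted P = 4e-04). WT thus lay between the mutants for the tetratricopeptide gene and above both for the P450 gene. A G-type lectin receptor-like kinase (Zm00001d011832), of a family of cell-surface kinases, averaged 7.64 ± 1.42 CPM in *nkd1* and 2.18 ± 0.935 CPM in *nkd2* (log2FC 1.81, adjusted P = 0.0059). Peroxidase 24 (Zm00001d008266), of a family that oxidizes substrates with hydrogen peroxide, averaged 7.41 ± 1.23 CPM in *nkd1* and 2.31 ± 1.01 CPM in *nkd2* (log2FC 1.68, adjusted P = 0.0045). SAUR33 (Zm00001d032094), of a family first known for its induction by auxin, averaged 12.3 ± 1.11 CPM in *nkd1*, 5.06 ± 1.69 CPM in *nkd2* and 9.21 ± 1.44 CPM in WT (SD, n = 4 for each mean of this paragraph), with a log2FC of 1.28 (SE 0.249, adjusted P = 0.00053).

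Besides the *nkd1* transcript, 6 annotated DEGs lower in *nkd1* met the same limits. The gene *mybr111* (Zm00001d026017), whose Arabidopsis homolog REVEILLE 1 is a MYB-like factor tied to the circadian clock, was at 1.25, 0.133, 1.41 and 1.66 CPM in *nkd1*, 10.2, 10.2, 8.24 and 9.71 CPM in *nkd2*, and 0.230 to 0.886 CPM in WT (log2FC −3.10, SE 0.577, adjusted P = 0.00034). Its number lies within 100 of that of *nkd2*. Protein GRIP (Zm00001d006357), named for a domain that directs proteins to the Golgi, was at 5.69, 5.68, 7.42 and 6.73 CPM in *nkd1*, 12.2, 14.2, 12.9 and 13.5 CPM in *nkd2*, and 4.56 to 5.87 CPM in WT (log2FC −1.05, SE 0.168, adjusted P = 6.1e-05). In both genes *nkd2* was the group away from WT.

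Myosin-2 (Zm00001d006593), an actin-based motor, averaged 3.67 ± 1.07 CPM in *nkd1* and 8.26 ± 1.38 CPM in *nkd2* (log2FC −1.17, adjusted P = 0.0018), and Pi15 (Zm00001d020112) was at 11.5, 11.5, 10.4 and 8.82 CPM in *nkd1* and 22.3, 27.8, 28.8 and 15.9 CPM in *nkd2* (log2FC −1.17, adjusted P = 0.0012). The myosin value was −0.87 (adjusted P = 0.054) without *nkd1* libraries 3 and 4. FAS1 (Zm00001d019349), a subunit of the factor that loads histones onto replicated DNA, was at 4.03, 3.42, 11.9 and 13.1 CPM in *nkd1*, 17.7, 17.5, 17.3 and 24.4 CPM in *nkd2*, and 11 to 12.7 CPM in WT (log2FC −1.25, SE 0.362, adjusted P = 0.014). The lower values came from *nkd1* libraries 1 and 2, and without this pair the log2FC was −0.62 (adjusted P = 0.28), while without library 1 or 2 alone the adjusted P was 0.062 or 0.06. In the fit of the 8 libraries it was 0.054. Trans-cinnamate 4-monooxygenase (Zm00001d009858), which acts early in the phenylpropanoid pathway, averaged 3.36 ± 1.07 CPM in *nkd1*, 7.63 ± 3.37 CPM in *nkd2* and 3.14 ± 0.937 CPM in WT (SD, n = 4 for each mean of this paragraph), with a log2FC of −1.19 (adjusted P = 0.0068) that was −0.84 (adjusted P = 0.053) without *nkd2* library 4 and −0.85 (adjusted P = 0.14) without *nkd1* libraries 1 and 2.

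**Figure D4:**
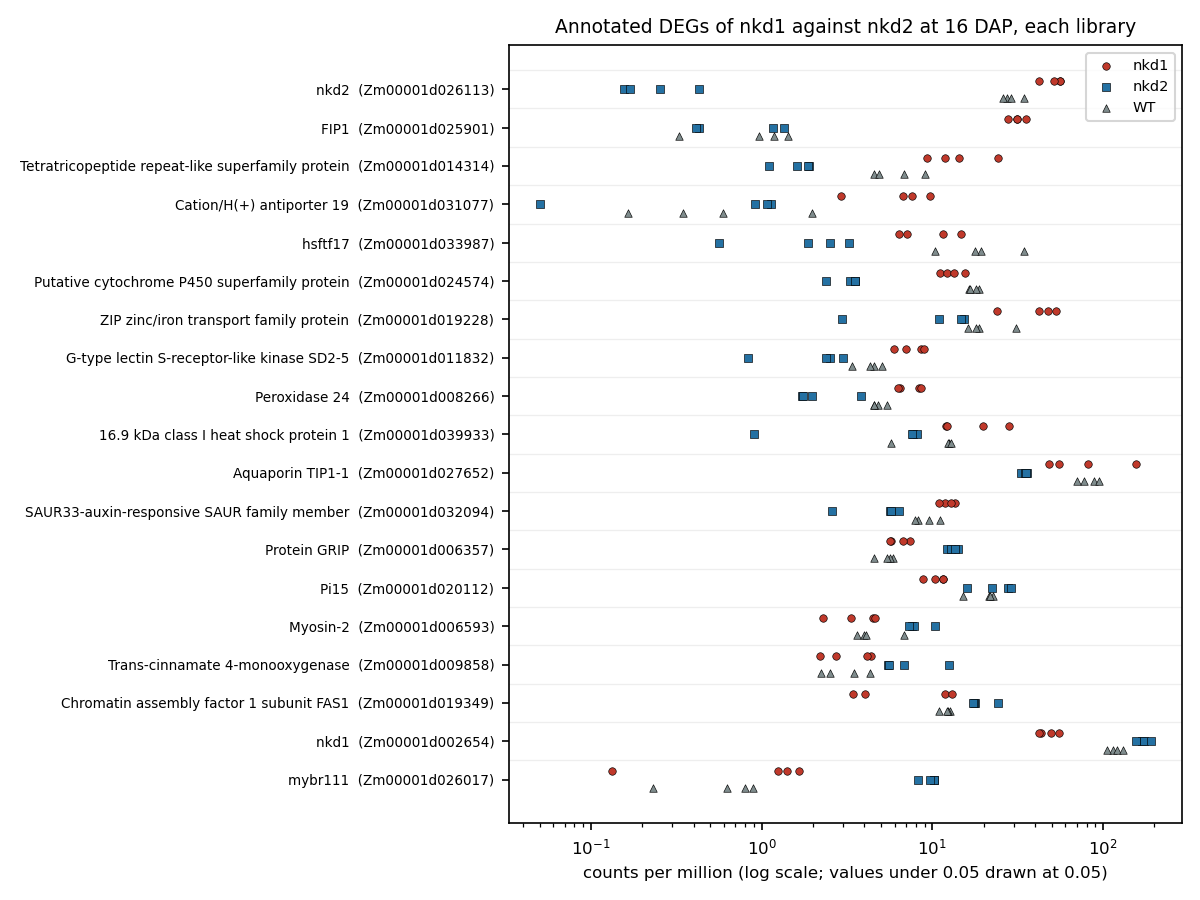
Level in each of the 4 *nkd1* (red circles), 4 *nkd2* (blue squares) and 4 WT (grey triangles) libraries at 16 DAP (CPM, log axis) of the annotated DEGs with at least 100 mean counts and no overlap between the mutants, from the largest positive log2FC at the top to the largest negative at the bottom. FIP1 stands at 27.8 to 35.2 CPM in *nkd1* only, and *mybr111* at 8.24 to 10.2 CPM in *nkd2* only.

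Zein genes were the most abundant transcripts and leaned toward *nkd1*, but none of the 16 tested passed the adjusted P in the fit of all 32 libraries at 16 DAP. Their median log2FC was 0.23, with a range of −0.56 to 0.81, beside −0.01 for all genes, and 7 of the 16 did not overlap between the mutants, beside 19.5% of all genes. The list was resolved from annotations of modules that the study built on these samples, so it is not independent evidence of direction. In the fit of the 8 libraries alone, 6 of the 16 passed, all higher in *nkd1*, beside 15% of the 20289 genes tested there. In that fit the 15-kDa zein gene *zp15* (Zm00001d035760) had a log2FC of 0.82 (SE 0.15, adjusted P = 0.0059), against 0.81 (SE 0.54, adjusted P = 0.32) in the fit of 32 libraries. The other 5 were *az22z3* (log2FC 0.48), *az22z4* (0.60), *zp3* (0.51), *fl4* (0.41) and *fl2* (0.44), with adjusted P-values of 0.0077 to 0.015.

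The *zp15* transcript was at 35000, 32400, 39000 and 27300 CPM in *nkd1*, 22400, 15700, 16500 and 21800 CPM in *nkd2*, and 33300 to 36700 CPM in WT, so that *nkd2* was the low group. The *fl2* transcript, an alpha-zein, was at 38300, 41600, 40600 and 41100 CPM in *nkd1*, 30800, 32200, 28500 and 28600 CPM in *nkd2*, and 34500 to 41400 CPM in WT. Again the mutants did not overlap. An alpha-zein in the other direction, *az22z5*, averaged 1660 ± 503 CPM in *nkd1* and 2460 ± 481 CPM in *nkd2* (SD, n = 4 each), with a log2FC of −0.56 (adjusted P = 0.49). Alpha-zein genes are near-identical copies, and how reads were split among them is uncertain.

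Among other storage genes, *se1* (*sugary-enhancer1*, Zm00001d007657), a modifier of kernel sugar, averaged 25.3 ± 5.57 CPM in *nkd1*, 14.8 ± 3.65 CPM in *nkd2* and 15.4 ± 3.89 CPM in WT (SD, n = 4 each), and passed the adjusted P (log2FC 0.77, adjusted P = 0.021). Of 3 starch genes tested it was the only one to pass, beside 19.7% of all genes. None of the 4 storage regulators passed, beside the same share of all genes, and their median log2FC was 0.17. Of 8 cell wall genes, 1 passed, beside 19.7% of all genes. It was pectinesterase QRT1 (Zm00001d022104), at 87.1 ± 13.5 CPM in *nkd1* and 52.5 ± 1.87 CPM in *nkd2* (log2FC 0.73, adjusted P = 0.00049).

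Of 7 heat shock genes tested, 3 passed the adjusted P, all higher in *nkd1*, and 2 of these were DEGs, beside 19.7% and 5.54% of all genes. The list median was 0.93. Without *nkd1* libraries 1 and 2, the heat shock gene Zm00001d007706 passed and was lower in *nkd1* (log2FC −0.84, adjusted P = 0.045, against −0.41 and 0.23 with all libraries). The heat stress transcription factor gene *hsftf17* (Zm00001d033987) averaged 9.98 ± 3.97 CPM in *nkd1*, 2.05 ± 1.14 CPM in *nkd2* and 20.5 ± 10.1 CPM in WT (SD, n = 4 each). Its log2FC was 2.27 (SE 0.525, adjusted P = 0.0026), and 1.70 (adjusted P = 0.053) without *nkd1* libraries 3 and 4. A 16.9-kDa class I heat shock protein gene (Zm00001d039933), a chaperone of unfolded proteins, was at 12.0, 12.2, 28.1 and 19.9 CPM in *nkd1*, 7.72, 8.14, 7.64 and 0.904 CPM in *nkd2*, and 5.71 to 12.9 CPM in WT (log2FC 1.56, adjusted P = 0.031). This call was lost without *nkd1* library 3 (adjusted P = 0.11), *nkd1* library 4 (0.058), both (0.31) or *nkd2* library 4 (0.079), and in the fit of the 8 libraries (0.066). The HSP70-9 gene (Zm00001d006036) averaged 86.4 ± 7.74 CPM in *nkd1* and 50.3 ± 9.05 CPM in *nkd2* (log2FC 0.78, adjusted P = 0.00019).

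Histone and replication genes had a median log2FC of 0.56, and 3 of 13 passed the adjusted P, all higher in *nkd1*, which is close to the 19.7% of all genes. Of these, the histone H4 gene *h4c7* (Zm00001d002543) was a DEG, at 6.75, 5.42, 16.7 and 10.7 CPM in *nkd1*, 2.14, 1.92, 2.25 and 9.06 CPM in *nkd2*, and 7.49 to 19.5 CPM in WT (log2FC 1.36, adjusted P = 0.017). The groups overlapped through *nkd2* library 4, without which the log2FC was 2.22 (adjusted P = 0.00014). The call was lost without *nkd1* library 3 (adjusted P = 0.1), without *nkd1* libraries 3 and 4 (0.38) and without *nkd2* library 1, 2 or 3 (0.065 to 0.07), and in the fit of the 8 libraries (0.1). Histone H4 genes are near-identical copies. A histone H2A gene (Zm00001d006548) averaged 38.1 ± 5 CPM in *nkd1* and 25.5 ± 0.456 CPM in *nkd2* (log2FC 0.58, adjusted P = 0.0014).

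In the aleurone and anthocyanin list, 1 of 3 genes was a DEG, beside 5.54% of all genes. The flavanone hydroxylase gene *fht1* (Zm00001d001960) of the anthocyanin pathway was at 0, 0.0332, 0 and 0 CPM in *nkd1*, 1.5, 1.69, 1.61 and 10.4 CPM in *nkd2*, and 0 to 0.190 CPM in WT. It was at least 37.6-fold lower in *nkd1*, with the highest value in *nkd2* library 4. The anthocyanin regulator *c1* averaged 0.383 CPM in *nkd1* and 0.698 CPM in *nkd2* (log2FC −0.86, adjusted P = 0.53). The embryo gene *esp1* (Zm00001d037988) was at 1.03, 1.46, 3.12 and 3 CPM in *nkd1*, 6.61, 11.9, 10 and 2.43 CPM in *nkd2*, and 1.64 to 5.19 CPM in WT (log2FC −1.85, SE 0.65, adjusted P = 0.043). Its groups overlapped, and without any of 7 of the 8 libraries in turn its adjusted P was 0.05 to 0.12, and 0.29 without *nkd1* libraries 1 and 2. DESeq2 gave it an adjusted P of 0.063. None of the 4 photosynthesis genes and neither of the 2 late embryogenesis abundant genes passed, and no transfer layer gene carried an annotation. Of 5 auxin genes tested, SAUR33 (Zm00001d032094) alone passed, and the list median was 0.11. Over all genes tested, 19.7% passed. The part that other tissues may have in these results was not tested.

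Of the 20 hub genes tested, that is regulators which the study chose as network centers from these samples, *hsftf17* was a DEG, and with it 4 passed the adjusted P, shares close to the 5.54% and 19.7% of all genes. The other 3 were lower in *nkd1*, namely *tubtf6* (log2FC −0.51, adjusted P = 0.0023), *myb155* (−0.46, 0.028) and *abi39* (−0.99, 0.022). Without *nkd1* libraries 1 and 2 the adjusted P was 0.43 for *myb155* and 0.24 for *abi39*, and each of these calls was also lost without some single libraries (0.052 to 0.13 and 0.058 to 0.085). In the fit of the 8 libraries that of *myb155* was 0.15. Without *nkd2* library 4, *arf1* (Zm00001d031522) passed and was higher in *nkd1* (log2FC 0.69, adjusted P = 0.013). The median of the list was 0.07. Module M1, a co-expression group that the study also built on these samples, had 494 genes tested, of which 26 were DEGs higher and 23 lower in *nkd1*, beside 3.5% and 2.04% of all genes. Its median log2FC was 0.08.

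The same comparison without O2 gave a different set of values. Of 24239 genes, 1359 (5.61%) were DEGs between *nkd1 o2* and *nkd2 o2*, 581 higher (2.4%) and 778 lower (3.21%) in *nkd1 o2*. The difference between the comparisons with and without O2 was itself past the adjusted P for 5183 genes (21.4%), and for 768 (57.2%) of the 1343 DEGs, which had been chosen for a large value in the comparison with O2. Of the 1343, 49% had the same direction without O2, beside 47.7% of all genes. There were 248 that were DEGs in both backgrounds, 126 with the same and 122 with the opposite direction. Of all 1359 DEGs without O2, 708 had the same and 651 the opposite direction with O2. Among the 52 DEGs numbered within 200 of *nkd2*, 20 were DEGs without O2, 18 of them in the same direction. The genotypes were separate homozygous lines, so an effect of O2 cannot be told apart from other differences between these lines.

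Genes of both kinds were named above. FIP1 (Zm00001d025901) was at 0.646, 2.21, 1.70 and 1.32 CPM in *nkd1 o2* and 28.4, 9.99, 20.4 and 28.0 CPM in *nkd2 o2* (log2FC −3.89, adjusted P = 0.0015), the reverse of its direction with O2 (adjusted P of the difference = 5.3e-06). Protein GRIP (Zm00001d006357) averaged 13.3 ± 1.31 CPM in *nkd1 o2* and 6.63 ± 1.12 CPM in *nkd2 o2* (log2FC 1, adjusted P = 9.2e-05), which was also reversed (adjusted P of the difference = 5.8e-07). Aquaporin TIP1-1 (Zm00001d027652) averaged 11.9 ± 4.70 CPM in *nkd1 o2* and 64.8 ± 10.8 CPM in *nkd2 o2* (SD, n = 4 each), a log2FC of −2.45 (adjusted P of the difference = 9.2e-07). For these 3 genes the mutant that was high with O2 was the low one without it.

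Zm00001d026056 was at 194, 192, 189 and 188 CPM in *nkd1 o2* and 146, 178, 142 and 176 CPM in *nkd2 o2*, so its low level in *nkd2* was not seen in *nkd2 o2* (log2FC 0.25, adjusted P of the difference = 2.8e-11). Zm00001d014347 likewise averaged 33.5 ± 3.86 CPM in *nkd1 o2* and 48.0 ± 10.8 CPM in *nkd2 o2*, against 0 to 0.104 CPM in *nkd2*. In contrast, the *nkd2* transcript averaged 17.6 ± 1.82 CPM in *nkd1 o2* and 0.119 ± 0.091 CPM in *nkd2 o2* (log2FC 7.14), and Zm00001d026295 averaged 0.0145 ± 0.0196 CPM in *nkd1 o2* and 276 ± 29.6 CPM in *nkd2 o2*. The *nkd1* transcript averaged 99.2 ± 14.3 CPM in *nkd1 o2* and 193 ± 29.9 CPM in *nkd2 o2* (SD, n = 4 for each mean of this paragraph), a log2FC of −0.96 that was smaller than with O2 (adjusted P of the difference = 0.0016).

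Zein genes had a median log2FC of −1.05 without O2, against 0.23 with it. The difference passed the adjusted P for 4 of the 16, a share close to the 21.4% of all genes, namely *az22z4* (log2FC −2.81 without O2, adjusted P of the difference 0.01), *zp3* (−2.74, 0.025), *fl2* (−2.10, 0.024) and *azs22-8* (−2.08, 0.04). Heat shock genes had a median of −0.79 without O2. The gene *se1* had a log2FC of −1.27 there, with an adjusted P of the difference of 7.1e-05.

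At 12 DAP, 548 of 24504 genes (2.24%) were DEGs between *nkd1* and *nkd2*, 318 higher (1.3%) and 230 lower (0.939%) in *nkd1*. At 8 DAP there were 318 of 25467 (1.25%), 226 higher (0.887%) and 92 lower (0.361%). These libraries are separate from those at 16 DAP, but the *nkd1* library pairs recurred at each age, so the ages are not taken as independent of each other. The count at 12 DAP depended on single libraries, with 248 without *nkd2* library 1, 235 without *nkd2* library 2 and 1215 without *nkd2* library 3. Of the 1304 DEGs of 16 DAP tested at 12 DAP, 68.7% had the same direction there, beside 61.3% of all genes, and 175 were DEGs, 133 in the same and 42 in the opposite direction. Of the 1254 tested at 8 DAP, 67.6% had the same direction, beside 59.9% of all genes, and 119 were DEGs, 114 in the same direction. Among all genes tested at 16 DAP too, 524 were DEGs at 12 DAP, 354 in the same direction as at 16 DAP. At 8 DAP there were 284, with 239 in the same direction. The DEGs numbered within 200 of *nkd2* had the same direction in 45 of 50 at 12 DAP (90%) and in 44 of 49 at 8 DAP (89.8%), and the 24 and 18 of them that were DEGs there all had the same direction. For the other DEGs of 16 DAP the shares were 67.9% and 66.7%.

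**Figure D5:**
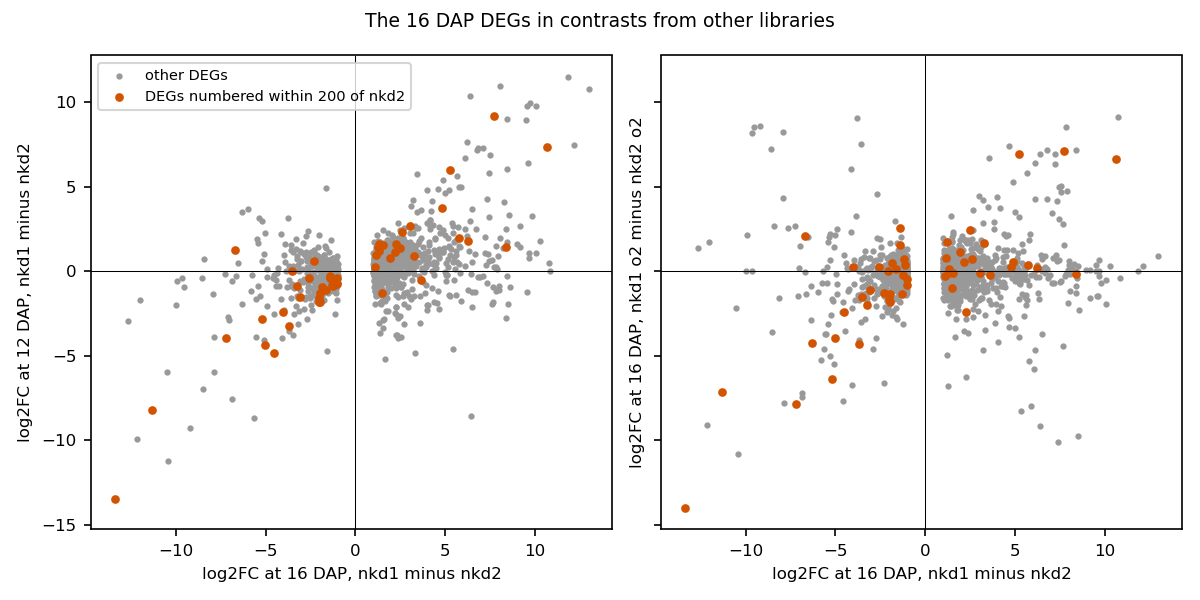
Each point is a DEG of 16 DAP by its log2FC there (*nkd1* minus *nkd2*, horizontal axis) and its log2FC in other libraries (vertical axis), at 12 DAP on the left (1304 genes) and between *nkd1 o2* and *nkd2 o2* at 16 DAP on the right (1343 genes). Genes numbered within 200 of *nkd2* are orange, and 45 of 50 on the left and 34 of 52 on the right have the same sign on both axes.

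The difference itself between 16 and 12 DAP passed the adjusted P for 397 of 23863 genes (1.66%) and for 157 of the 1277 DEGs of 16 DAP tested. These DEGs had been chosen for a large value at 16 DAP, which is part of that difference, so the shares are not comparable. The heat stress gene *hsftf17* (Zm00001d033987) turned round, at 4.45, 3.05, 1.22 and 1.31 CPM in *nkd1* and 68.9, 63.4, 1.05 and 2.02 CPM in *nkd2* at 12 DAP (log2FC −3.75, adjusted P of the difference = 0.03). The high values came from *nkd2* libraries 1 and 2 of that age, as they did for the 16.9-kDa heat shock gene (Zm00001d039933), at 55.1 and 51.5 CPM there against 1.82 and 2.05 CPM in the other *nkd2* libraries and 0.354 to 6.79 CPM in *nkd1*. The SAUR33 (Zm00001d032094) log2FC was 1.28 at 16 DAP and −0.11 at 12 DAP (adjusted P of the difference = 0.045), and that of the cytochrome P450 gene Zm00001d024574 was 2.04 and −0.03 (adjusted P of the difference = 0.017).

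Across the 4 comparisons, at 8, 12 and 16 DAP and without O2 at 16 DAP, 21 genes were DEGs in the same direction each time. They are part of the 1343 DEGs of 16 DAP. Of the 21, 13 were lower in *nkd1*, and 9, *nkd2* itself included, lay within 200 numbers of *nkd2*. Among the 21, Zm00001d012922 was at 1.78, 1.56, 13.5 and 13.1 CPM in *nkd1* at 16 DAP and was high in libraries 3 and 4 at the other ages too. They also included the *nkd2* transcript, Zm00001d026295, Zm00001d026097, Zm00001d026147, Zm00001d026069 and Zm00001d021910 from above. A further gene, Zm00001d002458, averaged 11.5 ± 0.982 CPM in *nkd1*, 0.0944 ± 0.0677 CPM in *nkd2* and 11.2 ± 0.683 CPM in WT at 16 DAP, and 12.2 ± 0.898 CPM in *nkd1 o2* and 0.0802 ± 0.0153 CPM in *nkd2 o2*. Zm00001d023840 had a like pattern, at 10.5 ± 1.81 CPM in *nkd1*, 0.360 ± 0.235 CPM in *nkd2* and 10.9 ± 2.13 CPM in WT. Zm00001d041399 ran the other way, at 0 CPM in every *nkd1* and WT library and 3.78 ± 0.226 CPM in *nkd2* (SD, n = 4 for each mean of this paragraph). These last 3 genes and Zm00001d012922 were named after their values were seen. For each of the last 3, *nkd2* was the group away from WT. None of the last 3 lies within 200 numbers of *nkd2*, while Zm00001d002458 lies within 200 numbers of *nkd1*.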

How the data were processed

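Endosperm RNA of 8 genotypes at 3 ages was sequenced as 150-base read pairs, and 96 libraries were deposited. Per the study's methods and the submitters' processing notes, the authors mapped W22 reads to B73 RefGen_v4 with HISAT2 2.1.0, used SAMtools 1.9 and StringTie 1.3.6, and counted reads per gene with HTSeq 0.11.1, and the deposited values are these raw counts. The counting mode, strand setting and annotation release are not given in the sources used here. Mapping to another inbred can lower the count of genes whose W22 sequence differs or is missing from B73. In the 8 libraries compared, 71.0 to 73.4% of all counts lay on genes. The remaining counts, in rows that name no gene, were left out.

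Groups were taken from the labels. Genes were filtered with filterByExpr and fitted with edgeR 4.0.16 (quasi-likelihood, TMM) in R 4.3.3 with limma 3.58.1, over all 32 libraries of an age, and P-values were adjusted by Benjamini-Hochberg over all genes tested. The contrast between ages was fitted on the *nkd1* and *nkd2* libraries of all 3 ages. The SE given with an edgeR log2FC is its absolute value divided by the square root of the quasi-likelihood F statistic. For genes at or near 0 in a group it is no measure of how uncertain the fold change is. CPM used TMM library sizes. The sum of squares used log2 CPM with a prior count of 2 and an exact permutation test in which a larger share counted as more extreme (one-sided). A level of 3 counts per library was the floor for genes at or near 0. Alternatives were DESeq2 1.42.0, its size factors, no filter, a replicate block, only the libraries compared and each replicate left out, and, chosen after seeing the data, *nkd1* pairs left out. The edgeR script was tested on simulated data with 200 changed genes. Those libraries were drawn independently, without *nkd1* pairs or an outlying *nkd2* library, so the test says nothing about calls in data with that structure. Tables and figures were made with Python 3.11.15, numpy 2.4.6, pandas 2.3.3 and matplotlib 3.10.9.

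Named were *nkd1*, *nkd2*, *o2* and the hub genes, the 12 annotated DEGs with the largest log2FC each way that had at least 100 mean counts and no overlap, the 3 largest each way regardless of annotation, up to 4 DEGs each way per gene list, and up to 5 each way within 100 identifier numbers of each locus. The genes and lists were chosen with earlier results of these data known. Names were taken from the study's tables (881 of 46430 genes), since no identifier matched the RefSeq table. In the fits of all 32 libraries of an age, P-values measure the spread between libraries over all 8 genotypes. They treat the libraries of a genotype as independent, although the *nkd1* libraries formed pairs.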

Additional observations from a re-analysis of the deposited data

Results flagged for a closer look

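Among 86 groups of 4 libraries of the named genes, 13 held a library far from the other 3, where chance flags about 1 in 20 groups, and 10 of the 13 were *nkd2* library 4. In that library *o2* was at 878 CPM, *mybr13* at 15.1, *gbf1* at 41.3, peroxidase 24 at 3.81, the 16.9-kDa heat shock gene at 0.904, *h4c7* at 9.06, Zm00001d026056 at 16.3, FAS1 at 24.4, Zm00001d052673 at 50.4 and *fht1* at 10.4 CPM. The other 3 were Myosin-2 in *nkd2* library 2 (10.3 CPM), *abi39* in *nkd1* library 3 (3.97 CPM) and Zm00001d002658 in *nkd1* library 4 (1.13 CPM).

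The difference between the mutants itself differed with and without O2 for 5183 genes, as tested by the interaction in edgeR. In this contrast, O2 and other differences between the homozygous lines cannot be told apart. Among named genes, the log2FC with O2 minus that without O2 was positive for *hsftf17* (3.5), FIP1 (9.1), Zm00001d014314 (4.02), Zm00001d024574 (2.6), Zm00001d019228 (3.51), Zm00001d011832 (3.83), peroxidase 24 (1.81), the 16.9-kDa heat shock gene (3.53), TIP1-1 (3.74), SAUR33 (2.35), Zm00001d047323 (12.1), Zm00001d052327 (9.97), Zm00001d014347 (10.59), Zm00001d002753 (6.74), Zm00001d002678 (8.37), Zm00001d002687 (1.82), Zm00001d026056 (4.55) and the zein genes *az22z4* (3.41), *azs22-8* (2.17), *zp3* (3.24) and *fl2* (2.53). It was negative for *nkd1* (−0.89), Zm00001d009858 (−1.18), Myosin-2 (−1.64), GRIP (−2.06), Zm00001d052673 (−14.03), *fht1* (−11.09), Zm00001d002554 (−3.25), Zm00001d002658 (−1.36), Zm00001d026037 (−8.79) and Zm00001d026097 (−2.13). The largest of these values involve groups near 0 counts and depend on the prior count. The DEGs had been chosen for their value with O2.

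Between 16 and 12 DAP the difference changed for 397 genes. The DEGs had been chosen for their value at 16 DAP. Among named genes the log2FC at 16 DAP minus that at 12 DAP was 6 for *hsftf17*, 2.06 for Zm00001d024574, 1.39 for SAUR33, −1.63 for Zm00001d009858, −9.21 for *fht1* and −1.42 for Zm00001d002658.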

How the results depend on the processing

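The count of 1343 DEGs stayed within 1.5 times under DESeq2 (1553), its size factors (1340), no filter (1280) and each replicate left out (1134 to 1338), and so did the 4765 genes past the adjusted P (3803 to 4451 with a replicate left out). With only the libraries compared, which changes both the filter (1039 of the 1343 DEGs were tested) and the libraries that estimate the spread, the counts were 835 DEGs and 3041 genes past the adjusted P at 16 DAP, 35 DEGs at 12 DAP and 56 at 8 DAP. Leaving out a replicate gave 235 to 1215 DEGs at 12 DAP, 242 to 364 at 8 DAP, 1190 to 1384 without O2, 4404 to 5220 genes for the difference between O2 backgrounds, and 180 to 779 for that between 16 and 12 DAP, which was 931 with DESeq2. The difference between ages was 180 without *nkd2* replicate 1 at 12 DAP, 246 without 2, 779 without 3 and 657 without 4, 229 and 223 without *nkd1* replicate 2 or 3 at 12 DAP, and 255 without *nkd2* replicate 4 at 16 DAP. Without *nkd1* libraries 1 and 2, the difference between O2 backgrounds counted 3543 genes. The share of the sum of squares was 31.1 to 55.9% under other settings and 35 to 38.4% with a replicate left out. The causes were not tested.

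The deviations of same-numbered *nkd1* and *nkd2* libraries were nearly uncorrelated (0.03, 0.01, −0.07 and 0.03). Whether such libraries share more than a number is not stated, and these correlations cannot decide it. With a replicate block there were 1294 DEGs and 4619 genes past the adjusted P at 16 DAP, 501 DEGs at 12 DAP, 292 at 8 DAP and 1305 without O2, and no call of the 62 named genes changed.

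Among named genes, hub genes that were not called changed sign. With a replicate left out, the values spanned *hb75* −0.09 to 0.2, *bhlh96* −0.11 to 0.18, *mybr24* −1.3 to 1.5, *hb11* −0.6 to 2.32, *platz2* −0.65 to 0.09, *mybr13* −0.07 to 0.51 and *gbf1* −0.06 to 0.22. Without *nkd1* libraries 3 and 4 they were −0.2 for *bhlh96*, 0.35 for *mybr24*, −0.45 for *hb11*, −0.03 for *cdpk13* and −0.27 for *mybr13*. Depth limits genes of few counts, whose fitted log2FC is no bound, and 4 libraries per genotype with *nkd1* pairs that stand apart limit the rest.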
